A study of Mus musculus with 64 samples.

Results

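Gene expression in the brains of 8 wild-type mice was set against that in their liver, spleen and thymus. The members are the 8 brain arrays of mice A to H, 8 of the 64 arrays of the series, chosen by their titles and not by any measured value. They were compared with the 8 liver, 7 spleen and 8 thymus arrays of the same mice. The study profiled total RNA of 4 organs from 16 male mice aged 21 weeks on Illumina bead arrays, with 1 array per organ and mouse, to compare Hmgn2 knockouts (Hmgn2-/-) and Hmgn1 Hmgn2 double knockouts (Hmgn1-/-n2-/-) with wild-type mice. HMGN proteins are small proteins that bind nucleosomes and loosen chromatin. Mice A to D carried the strain label C57BL/6 and mice E to H the label C57BL/6J, no treatment is named, and the 4 Hmgn2 knockouts and 4 double knockouts served here for a check of the targeted genes and a repeat of the organ comparison. The samples are bulk tissue, so fewer cells of a type and less RNA per cell cannot be told apart. The labels give no brain region and no dissection.

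The brain makes transcripts for jobs that the other organs do not share. Neurons release transmitter from synaptic vesicles, fire through voltage-gated channels, carry cargo along axons and splice their RNA with proteins of their own. Astrocytes take up transmitter and feed neurons, oligodendrocytes wrap axons in myelin, microglia are the resident immune cells, and the choroid plexus makes cerebrospinal fluid. The liver is the main source of plasma proteins, the spleen is rich in B cells and red cells, and the thymus is where T cells mature and divide, so that the same comparison also shows what the brain holds little of.

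Brain arrays correlated more closely with each other than with any array of the other organs. Pearson's r across genes was between 0.971 and 0.995 for pairs of brain arrays, between 0.488 and 0.525 for brain with liver, between 0.573 and 0.608 for brain with spleen and between 0.593 and 0.634 for brain with thymus. Genes are not independent replicates, so these values carry no p. Between 10037 and 13411 of 25697 probes were detected per array (detection p under 0.01), and 11784 to 12928 on the brain arrays.

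**Figure D1:**
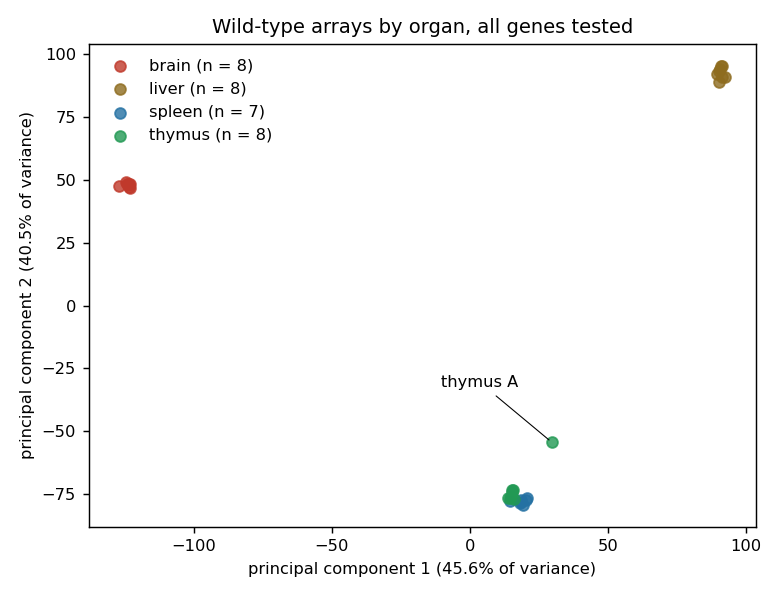
First and second principal components of the 31 wild-type arrays over 11060 genes, 1 point per array, coloured by organ. The 8 brain arrays form 1 tight group at the left, the 8 liver arrays lie at the upper right, spleen and thymus lie together at the lower right, and the thymus array of mouse A lies apart from the other 7.

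A few arrays stood apart, and several results that rest on them are given with and without them. On the brain array of mouse B, 237 of 7815 genes detected on all 8 brain arrays lay over 2-fold from the median of the other 7 arrays, against 5 to 34 genes on the other 7. The spleen array of mouse G had 1107 such genes of 8092, against 26 to 215 on the other 6 spleen arrays. On the thymus array of mouse A, the median liver plasma protein gene was 3.46 log2 units above the other thymus arrays. The spleen array of mouse H was left out because it went against its label: with all 64 arrays normalized together its Hmgn2 signal was 5.94 log2 units, against 11.72 to 12.33 on the other 7 wild-type spleen arrays. A spleen array labelled double knockout (replicate 1) read 12.06 and was left out of the repeat in mutant mice.

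The labelled tissue was checked against marker genes. Of 6 tested brain markers, Syt1, Gad1 and Mobp were at least 4-fold above all 3 other organs, Gfap was undetected in the other organs and at least 1.4-fold higher than in any of them, and Slc1a2, a glutamate transporter, was higher than in spleen and thymus but lower than in liver, while the probes of Mbp disagreed. Snap25, a core protein of vesicle fusion, was not detected on any of the 31 arrays, and neither were the probes for Nefl and Tubb3. Of the markers of the other organs, 3 of 4 for liver, 5 of 5 for spleen and 4 of 5 for thymus were undetected on every brain array, among them Serpina1b, Cd79b and Rag1. The liver marker Apoa1 was detected on 4 of 8 brain arrays and the thymus marker Ptcra on 1 of 8.

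More than 3 in 4 genes differed between the brain and any other organ. A gene was called when limma's moderated test, adjusted over all 11060 genes by the Benjamini-Hochberg method, gave an adjusted p under 0.05, and in addition the difference was at least 2-fold. At adjusted p under 0.05 alone, 8655 genes (78.3%) differed from liver, 8922 (80.7%) from spleen and 8822 (79.8%) from thymus. With the 2-fold limit, 2610 genes (23.6%) were higher and 2129 (19.2%) lower than in liver, 2377 (21.5%) higher and 2459 (22.2%) lower than in spleen, and 2328 (21%) higher and 2405 (21.7%) lower than in thymus. These 2-fold shares are the background for the 2-fold counts of each gene list below. The split between higher and lower moved with the scaling: without scaling between arrays it was 3323 to 1551 against liver, 1925 to 3320 against spleen and 1942 to 3318 against thymus, and the median of all genes moved from 0 to 0.3 against liver, from -0.06 to -0.36 against spleen and from -0.11 to -0.4 against thymus.

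In the brain, 870 genes (7.87% of those tested) were at least 4-fold above each of the 3 other organs with an adjusted p under 0.05 in each, and they are called brain-high. Only 137 genes (1.24%) were at least 4-fold below each of the 3, and they are called brain-low. The shares of 7.87% and 1.24% are the background for the brain-high and brain-low counts of each gene list below. Of the brain-high genes, 298 were over 16-fold and 63 over 64-fold above every other organ by the fitted values. Many were undetected in an organ, so that the difference there is only bounded from below, and with bounds in place of those fitted differences 724 brain-high genes were at least 4-fold, 222 over 16-fold and 28 over 64-fold above every organ, and 126 of the brain-low genes were at least 4-fold below every organ. In 869 of the 870 the lowest brain array was above the highest array of any other organ. The 4-fold rule makes such a separation likely, so it is no separate support. How many of all genes tested were so separated was not counted. No array of any of the 3 organs detected 307 of the brain-high genes, while 202 were detected in all 3. Rsph1 was just inside the limit of 2 log2 units, at 2.001, and Tmem100 just outside it at 1.999, while for brain-low genes Parp3 was just inside at -2.003. Of 250 brain-high genes with several probes, all probes were at least 4-fold high for 122 and at least 2-fold high for 181.

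The largest fitted difference from all other organs was that of Cplx1, which codes for complexin 1, a protein that clamps and triggers vesicle fusion. Its log2 signal was 13.54 to 13.9 on the 8 brain arrays (median 13.64), 4.27 to 4.66 in liver, 4.2 to 4.43 in spleen and 4.2 to 4.7 in thymus, and no array of the other organs detected it. It was at least 307-fold higher than in liver, at least 496.6-fold higher than in spleen and at least 460.6-fold higher than in thymus (adjusted p at most 1.1e-40, limma). Such bounds set the brain mean against the dimmest detected probes of the other organ's arrays. Rasgrf1, which activates Ras after calcium entry in neurons, was at 13.24 to 13.91 (median 13.54) in the brain, and 1 of the 23 other arrays detected it. That array was a spleen array, and the gene was at least 281.9-fold higher than in liver and at least 422.9-fold higher than in thymus (adjusted p at most 1.54e-40, limma). Among genes undetected elsewhere the order of these differences is set by values below detection. The p-values there also set brain signal against values below detection, and add nothing to the bounds.

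Sh3gl2, coding for endophilin A1 of vesicle recycling, was detected on 2 of 7 spleen arrays and was at least 213.1-fold higher than in liver and at least 319.8-fold higher than in thymus. Sult4a1, a brain sulfotransferase, was at 12.35 to 12.94 in the brain and undetected elsewhere, at least 143.6-fold higher than in any other organ. Eef1a2, the translation elongation factor of neurons and muscle, was detected on 1 of 8 thymus arrays and was at least 147.7-fold higher than in liver and at least 239-fold higher than in spleen. Cldn11, a tight junction protein of myelin, was 7.75 ± 0.12 (SE) log2 units above thymus, where 7 of 8 arrays detected it and the 8 arrays read 4.83 to 5.76. The remaining genes of the 20 with the largest fitted differences were Vsnl1, Vstm2l, Tmem130, Slc32a1, Kif5a, Dner, 6330403K07Rik, Pvalb, Tceal5, Svop, Eno2, Syn1, Fez1 and Hpcal4. All 20 were above every array of the other organs on every brain array. Picking the largest differences makes such a separation likely, so it is no separate support.

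**Figure D2:**
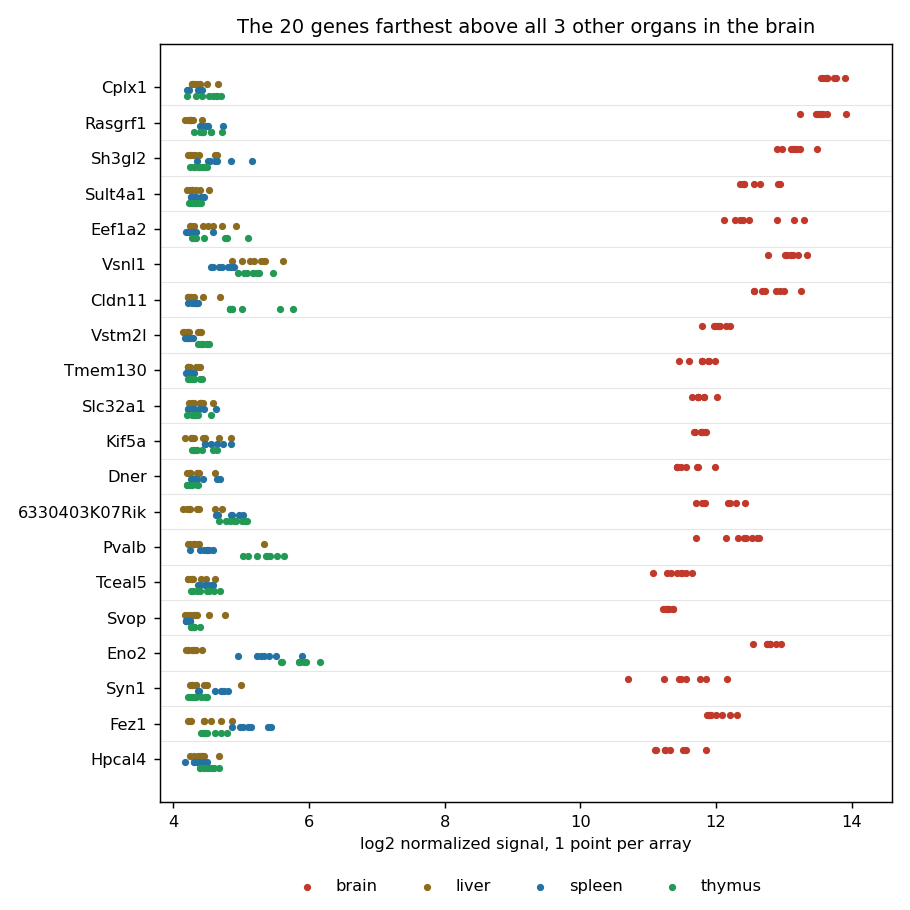
Log2 normalized signal (x axis) of the 20 genes with the largest difference from their closest organ (rows), 1 point per array, coloured by organ. In each row the 8 brain points lie to the right of all 23 points of the other organs, which mostly sit between 4 and 6.

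The brightest brain-high genes included several that other organs also expressed. Ckb, the brain form of creatine kinase, was at 14.22 to 14.35 in the brain, at the top of the signal range. It was at 8.25 to 9.26 in liver, 11.06 to 11.33 in spleen and 10.05 to 10.41 in thymus. Prnp, the prion protein gene, was 2.86 ± 0.08 above thymus, its closest organ. Camk2n1, an inhibitor of the kinase CaMKII, was 4.01 ± 0.11 above liver, and Snrpn, an imprinted splicing factor gene, 5.24 ± 0.11 above liver. Mt1, a metal-binding protein gene, was 2.54 ± 0.44 above thymus, but its liver arrays ranged from 9.64 to 14.22 and overlapped the brain range of 13.08 to 13.88. It was the 1 brain-high gene whose groups overlapped.

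Promoter sequences of the called genes were read from RefSeq (GRCm38.p6), 250 bases before to 50 after each annotated start. Of the 870 brain-high genes 664 matched, with 983 windows, and of the 137 brain-low genes 102, with 130 windows. The RE1 element binds REST, a repressor that keeps neuronal genes off in other tissues. Its left part, TTCAGCACC on either strand, was in 11 brain-high windows (1.12%), in 46 of 11551 windows of all tested genes (0.398%), and in 0.371% of all 32851 windows. The right part, which is the last run of capitals in the Tph2 sequence printed next, was searched on either strand and was in 4 brain-high windows (0.407%) against 0.234% of the windows of tested genes. The core of the interferon response motif, GAAA followed after any 2 bases by another GAAA, on either strand, was in 16 brain-low windows (12.3%) against 3.13% of the windows of tested genes and 3.44% of all windows. The other motifs were searched on either strand too, so that their shares also count the reverse complement. TATAAA was in 9.16% of brain-high, 13.8% of brain-low and 8.49% of tested-gene windows, and the cyclic AMP response element TGACGTCA in 2.34%, 1.54% and 2.64%. The GC box GGGCGG was in 54% of brain-high and 53.1% of brain-low windows against 58% for tested genes, and CCAAT in 33.3% and 33.8% against 37.3%. A match in a window is a description, no test was made of these shares, and whether a factor bound there was not measured.

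The sequences that show these motifs come from 3 brain-high and 2 brain-low genes. Syn1 and Dner are among the 20 genes with the largest fitted differences, Tph2 was the 1 brain-high gene with both RE1 parts (5 of all windows had both), and B2m and H2-T23 are brain-low genes of antigen presentation. Capitals mark RE1 parts in the first 3 and the interferon response core, or its reverse complement, in the last 2. The windows run 250 bases up to the start site, and for Tph2 only the 27 bases of the element, which begin 9 bases into the transcript, are shown.
Syn1, chrX:20920919-20921168, minus strand: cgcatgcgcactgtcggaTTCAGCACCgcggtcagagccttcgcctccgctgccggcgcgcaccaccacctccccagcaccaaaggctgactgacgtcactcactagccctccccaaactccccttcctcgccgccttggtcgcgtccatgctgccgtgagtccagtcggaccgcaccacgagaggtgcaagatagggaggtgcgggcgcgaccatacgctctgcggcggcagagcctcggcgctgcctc
Dner, chr1:84696222-84696471, minus strand: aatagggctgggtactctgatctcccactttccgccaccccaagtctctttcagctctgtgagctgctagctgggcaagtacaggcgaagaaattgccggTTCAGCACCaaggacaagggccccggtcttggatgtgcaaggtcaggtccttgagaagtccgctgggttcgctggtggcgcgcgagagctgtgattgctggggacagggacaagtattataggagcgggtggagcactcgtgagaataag
Tph2, chr10:115184988-115185014, minus strand: TTCAGCACCagggttctGGACAGCGCC
B2m, chr2:122147437-122147686, plus strand: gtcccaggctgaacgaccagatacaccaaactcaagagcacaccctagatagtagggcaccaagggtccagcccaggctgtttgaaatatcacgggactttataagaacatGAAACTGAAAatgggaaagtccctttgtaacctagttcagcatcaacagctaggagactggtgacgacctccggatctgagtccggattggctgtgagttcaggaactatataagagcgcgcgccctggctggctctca
H2-T23, chr17:36032702-36032951, minus strand: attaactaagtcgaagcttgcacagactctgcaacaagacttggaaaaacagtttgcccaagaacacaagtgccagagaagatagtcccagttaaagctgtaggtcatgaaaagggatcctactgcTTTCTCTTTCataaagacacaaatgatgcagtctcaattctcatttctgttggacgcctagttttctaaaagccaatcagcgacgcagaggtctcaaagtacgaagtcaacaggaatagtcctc

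Of 32 vesicle and release genes with a probe, 29 were tested and 24 of these were brain-high, against 7.87% of all genes tested. The median difference of the 29 was 5.2 log2 units from liver, 4.9 from spleen and 5.4 from thymus, against medians of 0, -0.06 and -0.11 over all genes. With bounds for undetected groups the list medians were 5.11, 4.9 and 5.06, against 0 over all genes for each organ. A gene detected nowhere was not tested, so that a gene expressed only in the brain entered the test through the brain alone, and this holds for every list. Syp (synaptophysin) was 6.76 ± 0.13 above spleen, its closest organ, and was lowest on the array of mouse B, at 11.34 against 12.15 to 12.7 on the other 7. Syn1 (synapsin 1), whose promoter is printed above, was at 10.7 to 12.16 in the brain and at 4.22 to 5 elsewhere. Syt4 and Syngr3, a calcium sensor family member and a vesicle membrane protein, were also brain-high, at least 48.7-fold above liver for Syt4 and at least 35.4-fold above any other organ for Syngr3. No member was lower in the brain than in any organ by the 2-fold rule.

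Glutamate and GABA, the main exciting and inhibiting transmitters, were both represented by their vesicle transporters. Slc17a6, the glutamate transporter of the brainstem and thalamus, was at 11.12 to 11.75 in the brain and undetected elsewhere, at least 64-fold higher than in any other organ. Slc17a7, its counterpart in cortex and cerebellum, was at 10.16 to 10.9 on 7 brain arrays and 8.99 on that of mouse B, and was at least 29-fold higher than in any other organ. Of 23 tested glutamate genes 12 were brain-high, among them the receptor subunit gene Gria2 and the kinase genes Camk2a and Camk2b. Slc32a1, the vesicle transporter of GABA and glycine, was at 11.64 to 12.01 in the brain and at 4.2 to 4.63 elsewhere, at least 82.4-fold higher. Gad1, the enzyme that makes GABA, was 5.91 ± 0.15 above spleen, where all 7 arrays detected it at 5.05 to 6.36. Of 16 tested GABA and glycine genes 8 were brain-high and none was lower than any organ by the 2-fold rule.

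Some of the genes are known from small groups of neurons. Tph2, which makes serotonin in the raphe nuclei, was at 6.85 to 7.73 in the brain and undetected elsewhere. Slc6a3, the dopamine transporter of midbrain neurons, was detected on 3 of 7 spleen arrays and was at least 3.9-fold above liver and at least 5.9-fold above thymus, and Drd1, a dopamine receptor of the striatum, was undetected elsewhere and at least 3.7-fold higher than in any other organ. Of 20 tested monoamine and acetylcholine genes 7 were brain-high. The enzymes Ddc and Maob, chosen after their values were seen, were higher than in spleen and thymus but lower than in liver, by 2.34 ± 0.11 and 2.8 ± 0.17 log2 units, and both are known to act in liver too.

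Of 20 tested neuropeptide genes 14 were brain-high, and of 13 tested genes of granules and peptide processing 12. Sst (somatostatin) and Cck (cholecystokinin), peptides of cortical interneurons, were detected on 4 and 1 of 8 thymus arrays, and were at least 45.8-fold and 30.9-fold above liver and at least 74.1-fold and 50-fold above spleen. Npy (neuropeptide Y) was undetected elsewhere and at least 18-fold higher than in any other organ. Pmch, made by neurons of the lateral hypothalamus, was at 8.82 to 9.9 on the brain arrays and undetected elsewhere, at least 15.8-fold higher. The hypothalamic peptides Hcrt (orexin) and Oxt (oxytocin), chosen after their values were seen, were at 5.47 to 7.05 and 6.32 to 7.53 in the brain. Scg2 and Chgb, granins of the granule core, varied little between brains: Scg2 was at 10.32 to 10.54 on all 8 and 4.14 to 4.32 on all 23 other arrays.

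Of 28 tested voltage-gated channel genes 19 were brain-high, led by Kcnab1, a potassium channel subunit, at 5.16 ± 0.11 above spleen, and Hcn2, a pacemaker channel, at least 19-fold above any other organ. Of 32 tested cytoskeleton and axon genes 25 were brain-high. Kif5a and Kif5c, motors of axonal transport, were also brain-high. Kif5a was detected on 2 of 7 spleen arrays and was at least 82.3-fold above liver and at least 123.4-fold above thymus, Kif5c was 6.4 ± 0.1 above thymus, and Stmn2, a regulator of microtubules, 6.51 ± 0.09 above spleen. Thy1, a surface protein of both neurons and T cells that was chosen after its values were seen, was at 11.82 to 12.92 in the brain and at 13.02 to 13.27 in thymus. It was detected on 1 of 8 liver arrays, and was 2.15 ± 0.15 above spleen and 0.72 ± 0.15 below thymus (log2 difference -0.72, adjusted p = 4.09e-05, limma).

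Of 21 tested transcription factor genes 6 were brain-high, with Myt1l, a repressor of non-neuronal genes, at least 16.9-fold and Zic1, a factor of cerebellar granule cells, at least 16.3-fold above any other organ. Bcl11b and Satb1, which act in cortical neurons and in T cells and were chosen after their values were seen, were lower than in thymus, with log2 differences of -2.83 ± 0.2 and -3.76 ± 0.15. Bcl11b was at least 12.7-fold higher than in liver and did not pass the test against spleen (0.02 ± 0.2, adjusted p = 0.931, limma). Of 14 tested RNA-binding protein genes 6 were brain-high, led by Rbfox3, the NeuN antigen of neurons, and Elavl2. Ptbp1, the splicing repressor that neurons switch off, was at 7.27 to 7.82 in the brain, 9.4 to 9.76 in liver, 9.8 to 10.41 in spleen and 10.63 to 10.82 in thymus. Its difference from liver, -2 ± 0.08, fell just outside the 4-fold limit, while those from spleen and thymus were -2.53 ± 0.08 and -3.19 ± 0.08.

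**Figure D3:**
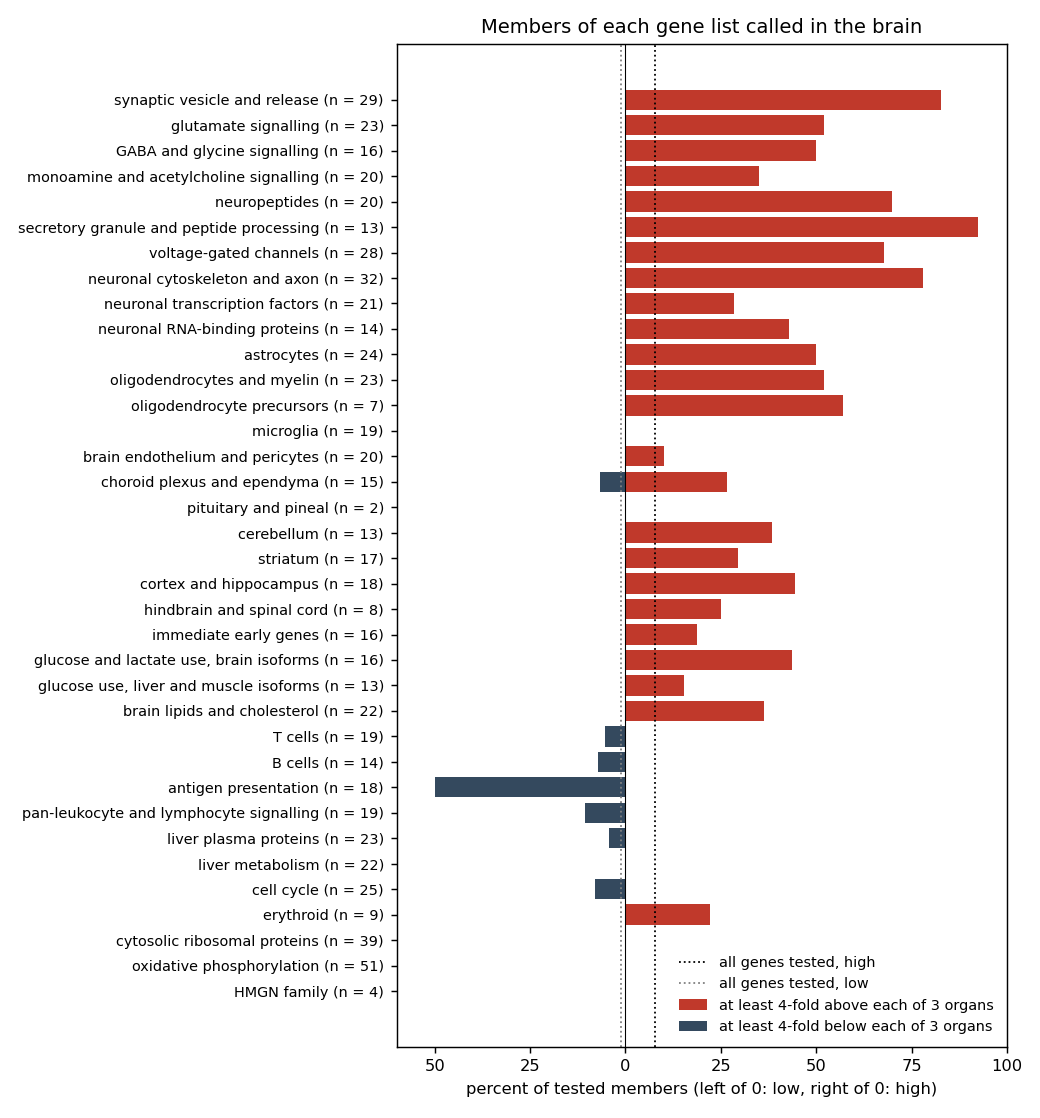
Percent of the tested members of each gene list (rows, with the number tested) that were at least 4-fold above (right of 0) or at least 4-fold below (left of 0) each of the 3 other organs. Dotted lines mark 7.87% and 1.24%, the shares among all genes tested. The neuronal lists reach 92.3%, while antigen presentation is the list with the longest bar to the left.

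Of 24 tested astrocyte genes 12 were brain-high, while 4 were at least 2-fold lower than in liver. Ttyh1, a channel-like membrane protein, was at least 46.5-fold and Ntsr2, a neurotensin receptor of astrocytes, at least 29.3-fold higher than in any other organ. Mt3, a brain metallothionein, was at least 34.7-fold higher than in any other organ, but ranged over 8.99 to 11.93 on the brain arrays, lowest in mouse B and highest in mouse C. Gfap, the classical astrocyte filament, was at 5.47 to 6.36 and no other organ's array detected it. Slc1a2 was lower than in liver (-1.06 ± 0.09), and so was Aldh1l1, a folate enzyme chosen after its values were seen (-4.21 ± 0.1).

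Of 23 tested oligodendrocyte genes 12 were brain-high, and of 7 tested precursor genes 4. Of the 23, 3 were at least 2-fold lower than in liver and 1 lower than in thymus, by the probes used. Bcas1, expressed by myelinating oligodendrocytes, was 6.37 ± 0.11 above spleen, Mag, an adhesion protein of the innermost myelin layer, 5.11 ± 0.09 above spleen, and Mobp, a myelin protein undetected elsewhere, at least 18.8-fold above any other organ. Mag spanned 11.22 to 11.45 on the 8 brain arrays. Cspg5, a proteoglycan of precursors and neurons, was detected on 3 of 8 liver arrays and was at least 29.2-fold above spleen. Trf, the iron carrier transferrin, which both oligodendrocytes and the liver make, was at 11.19 to 11.63 in the brain and 14.14 to 14.35 in liver.

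The 3 probes of Mbp, myelin basic protein, gave opposite answers. Probe 1 read 13.82 to 14.14 on the brain arrays, with means of 4.37 in liver, 5.23 in spleen and 5.17 in thymus. Probe 3 read 9.56 to 11.46 on the brain arrays and had means of 4.44, 4.62 and 4.61 in the other organs. Probe 2, which the rule of the highest mean over all arrays picked for the test, read 7.7 to 8.42 in the brain, 8.59 to 9.08 in spleen and 9.1 to 9.4 in thymus. Mbp was therefore 0.56 ± 0.13 below spleen and 1.07 ± 0.13 below thymus in the test (log2 differences -0.56 and -1.07, adjusted p = 0.000299 and 3.62e-09, limma), whereas by the probe brightest in the brain it was 8.71 above its closest organ. The gene is known to make long golli transcripts in thymus besides the myelin forms, and no source used here says which transcripts each probe reads. Among 3046 genes with several tested probes, 16 had 1 probe at least 4-fold above all 3 organs and another at or below one of them. Of these 16, 10 were counted brain-high by the probe used and 6, Mbp among them, were not. Mbp had the widest gap, followed by Klc1 (kinesin light chain 1) and Adgrb2, both chosen after their values were seen. Klc1 probes stood at 6.07 and -0.79 log2 units from their closest organ, and those of Adgrb2 at 4.73 and -0.81.

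**Figure D4:**
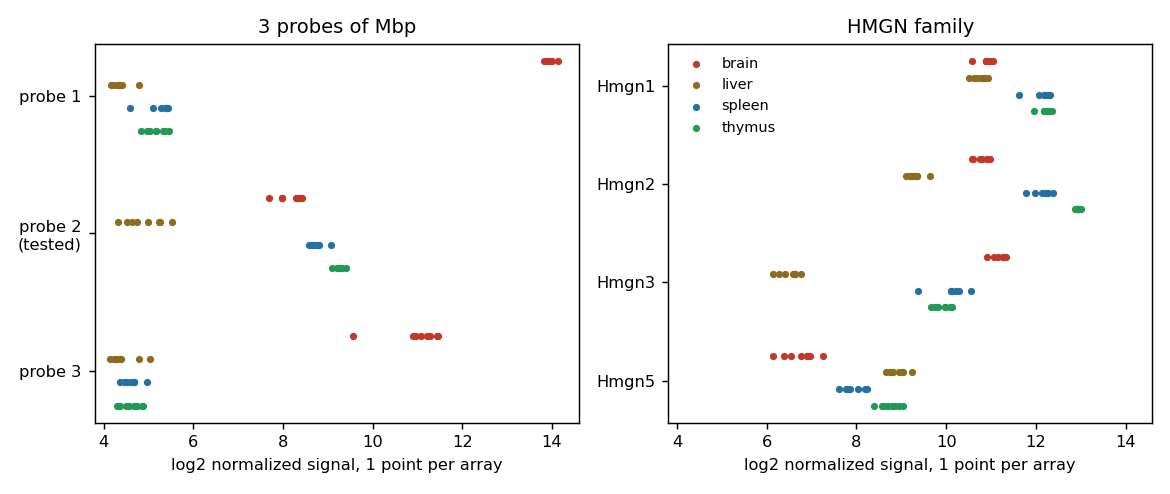
Log2 normalized signal (x axis), 1 point per array, for the 3 Mbp probes (left) and the 4 HMGN genes (right), coloured by organ. The brain points of probes 1 and 3 lie far to the right of all others, those of probe 2 lie left of spleen and thymus, and for Hmgn1 and Hmgn2 spleen and thymus lie right of the brain.

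None of 19 tested microglia genes was brain-high. By fitted values and at least 2-fold, 11 were higher than in liver and none lower, 7 were higher and 9 lower than in thymus, and 3 were higher and 13 lower than in spleen. The shares among all genes tested were 23.6% higher and 19.2% lower for liver, 21% and 21.7% for thymus, and 21.5% and 22.2% for spleen. Without scaling between arrays 3 of the microglia genes were higher than in thymus and 2 than in spleen. The medians were 1.19, -0.43 and -1.98 from liver, thymus and spleen, or 0.85 from liver with bounds for undetected groups, and 3 genes, each coding for a surface protein of microglia, were higher than all 3 organs by at least 2-fold in fitted values. Trem2 and Tmem119 were 1.44 ± 0.12 and 1.05 ± 0.11 above thymus, and Fcrls was detected on 1 of 8 thymus arrays. No liver array detected the 3, and against liver Fcrls and Tmem119 are bounded only at 1.8-fold or more and Trem2 at 2-fold or more. Tyrobp, an adaptor shared by microglia and other myeloid cells, was 3.48 ± 0.26 below spleen (log2 difference -3.48). P2ry12, the purine receptor of resting microglia, did not differ detectably from spleen (0.1 ± 0.34, adjusted p = 0.795, limma), and its brain values ran from 5.33 to 7.72.

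Of 20 tested endothelial and pericyte genes 2 (10%) were brain-high, a share near the 7.87% of all genes tested. They were Slco1c1, the thyroid hormone transporter of brain capillaries, at 7.71 to 8.51 in the brain and undetected elsewhere, and Spock2, at 2.61 ± 0.13 above thymus. Mfsd2a, the lipid transporter that keeps the blood-brain barrier closed, was 1.42 ± 0.18 above liver. Other members went the other way. By the 2-fold rule 8, 8 and 9 of the 20 were higher than in liver, spleen and thymus, and 3, 5 and 2 were lower. Over all genes tested the shares were 23.6%, 21.5% and 21% higher and 19.2%, 22.2% and 21.7% lower. Of 15 tested choroid plexus and ependyma genes 4 were brain-high by fitted values, namely Slc13a4, Clic6, Igf2 and Kl. Igf2, a growth factor of choroid plexus and meninges, was 2.43 ± 0.12 above spleen. Kl was at 6.15 to 7.02 in the brain and 4.17 to 4.46 in the other organs, where the dimmest detected probes read 4.66 to 5.5. Its 4-fold call therefore rests on values below detection. Ttr, the thyroid hormone carrier made by choroid plexus and liver, was at 13.27 to 13.82 in the brain and 13.59 to 13.82 in liver (difference -0.21 ± 0.47, adjusted p = 0.7, limma). It was 6.62 ± 0.47 above thymus, and 7.37 without the brain array of mouse B, the spleen array of mouse G and the thymus array of mouse A, which read 11.6. Aqp1, the water channel of choroid plexus, was itself brain-low, at 5.93 to 6.75 against 8.62 to 11.8 on all other arrays.

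Markers of several brain regions were among the brain-high genes. Of 13 tested cerebellar genes 5 were brain-high, among them Cbln1 of granule cells, detected on 3 of 7 spleen arrays and at least 61.9-fold above liver, and Pcp2 of Purkinje cells, at least 16.5-fold above any other organ. Of 17 tested striatal genes 5 were brain-high, among them Tac1 and Rgs9, and of 18 tested cortical and hippocampal genes 8, among them Hpca and Tbr1. En2, a patterning gene of midbrain and cerebellum, was at least 10.1-fold higher than in any other organ. With Tph2 it made 2 brain-high genes (25%) of 8 tested hindbrain genes, against 7.87% of all genes tested. The cerebellar list ran 0.36 log2 units above the other arrays in mouse B and 0.31 below in mouse E (-0.31), and the cortical list between -0.21 and 0.15.

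Pituitary hormone transcripts were detected on some of the brain arrays only. Gh, growth hormone, read 13.62 on the array of mouse E, 8.84 in G, 5.56 in D and 5.04 in F, and was undetected in A, B, C and H at 4.22 to 4.43. Prl, prolactin, read 12.88 in E, 7.71 in G, 5.23 in F and 5.03 in D and was undetected in the other 4, so that both hormones were high in the same mice. Pomc, Cga and Tshb, the precursor of corticotropin, the shared subunit of glycoprotein hormones and the thyrotropin subunit, were detected in E alone, at 9.11, 9.03 and 7.72. Neither Gh nor Prl was brain-high. Prl passed the 2-fold rule against each organ by its fitted values, but no other organ detected it, and as a bound it was at least 1.5-fold higher than in liver (adjusted p = 0.0401, limma). Without mice E and G no 2-fold call was left for Gh, and Prl was detected on too few arrays to be tested. The part of attached pituitary tissue in these values was not tested.

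**Figure D5:**
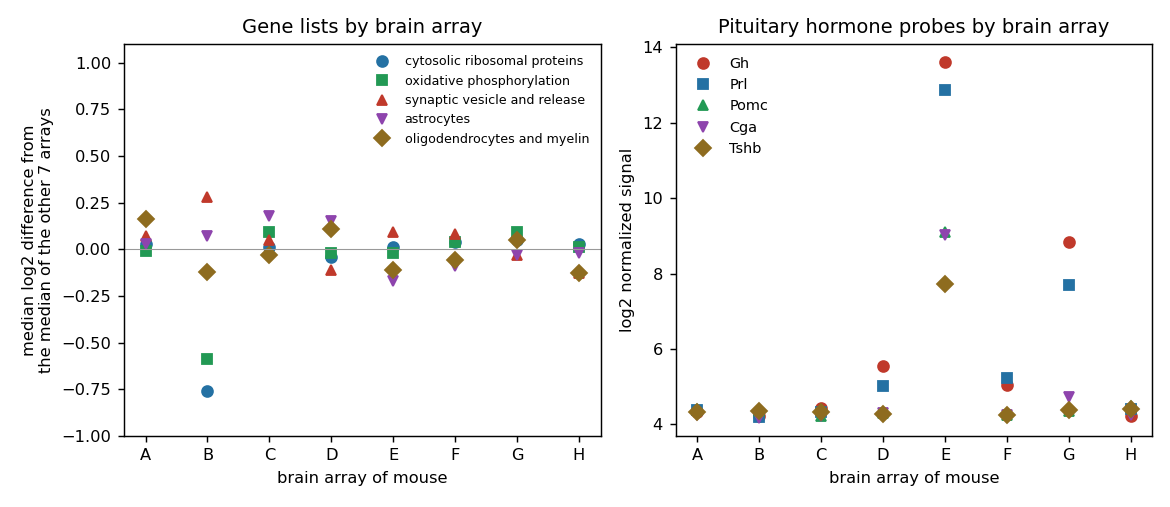
Left: median log2 difference of 5 gene lists on each brain array from the median of the other 7 arrays. Right: log2 normalized signal of 5 pituitary hormone probes on each brain array. The array of mouse B is low for ribosomal proteins (-0.76) and oxidative phosphorylation (-0.59) while every other point of these 5 lists lies within 0.28 of 0, and the hormone probes are high in mouse E and, for Gh and Prl, in mouse G.

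Immediate early genes, which neurons switch on with activity, were partly brain-high, 3 of 16 tested (18.8%), against 7.87% of all genes tested. Egr4 was at 8.22 to 8.85 in the brain and undetected elsewhere, Arc, which acts at active synapses, was 2.58 ± 0.15 above thymus and ranged from 8.02 to 9.59, and Npas4 was at 5.89 to 7.04. Fos was higher than in every organ, by 1.26 ± 0.21 from spleen at the least, with brain arrays spread over 7.02 to 8.58. Klf2, a factor of resting lymphocytes and endothelium, was 4.61 ± 0.17 below spleen (log2 difference -4.61).

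Of 16 tested genes for brain forms of glucose and energy enzymes 7 were brain-high, while 2 were at least 2-fold lower than in liver. Eno2 (neuronal enolase) was 6.93 ± 0.09 above thymus, Aldoc (the brain aldolase) 4.75 ± 0.14 above liver, Ckmt1 (mitochondrial creatine kinase) 4.67 ± 0.21 above thymus, and Atp1b1 (a sodium pump subunit) 4.17 ± 0.1 above thymus. Pkm, pyruvate kinase, was higher than in every organ but not brain-high, at 1.29 ± 0.11 above thymus. Of 13 tested liver and muscle forms 2 (15.4%) were brain-high, both of muscle type, against 7.87% of all genes tested. Pfkm, the muscle phosphofructokinase, was 3.23 ± 0.13 above thymus and Aldoa, the muscle aldolase, 2.34 ± 0.14 above spleen. The liver enzymes Fbp1, of glucose synthesis, and Slc2a2, the liver glucose transporter, were undetected in every brain and at least 103.7-fold and 34.9-fold lower than in liver.

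Of 22 tested genes of brain lipids and cholesterol 8 were brain-high, while 6 were at least 2-fold lower than in liver. The list median from liver was 0.01. Ptgds, the prostaglandin D2 synthase of meninges and oligodendrocytes, was detected on 1 of 7 spleen arrays and was at least 51.1-fold higher than in liver and at least 76.7-fold higher than in thymus, and Apod, a lipid carrier of glia, was 3.89 ± 0.1 above thymus. Lss, lanosterol synthase, and Idi1, an isoprenoid isomerase detected on 2 of 8 brain arrays, were lower than in liver, with log2 differences of -3.51 ± 0.12 and -2.41 ± 0.15. Idi1 did not pass the test against spleen (-0.28 ± 0.15, adjusted p = 0.0832) or thymus (-0.3 ± 0.15, adjusted p = 0.058, limma).

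Of the 137 brain-low genes, Dpp4 was farthest below its closest organ by fitted values. It codes for a membrane peptidase of lymphocytes and epithelia and was at 4.9 to 5.52 in the brain, 9.95 to 10.37 in liver, 9.51 to 10.43 in spleen and 9.42 to 9.93 in thymus. Its difference from its closest organ was -4.56 ± 0.11 (adjusted p = 2.09e-28, limma). Cd1d1, which presents lipids to natural killer T cells, was at -4.46 ± 0.14, and Clec2d, a lectin that inhibits natural killer cells, at -4.2 ± 0.26, from their closest organs. The rest of the 10 farthest below were H2-T23, H2-Q7, Hp, Tk1, Fam169b, Ifi47 and Gsdmd. Of the 137, 24 were undetected on every brain array and 66 detected on all 8. For 135 the highest brain array was below every other array, a separation that the 4-fold rule makes likely here too.

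Of the lists, antigen presentation held the most brain-low genes, 9 of 18 tested genes against 1.24% of all genes tested, and 14 at least 2-fold lower than all 3 organs. B2m, the light chain of class I molecules, was at 9.93 to 11 in the brain, 13.14 to 13.4 in liver, 13.38 to 13.83 in spleen and 12.99 to 13.55 in thymus. H2-K1, a class I heavy chain, was detected on 1 of 8 brain arrays and on every array of the other organs. Cd74, the invariant chain of class II molecules, was at 4.92 to 6.01 in the brain and at 13.52 to 13.88 in spleen, and Psmb9, an immunoproteasome subunit, 3.01 ± 0.12 below liver (-3.01). The class I genes are near-identical to each other, and which of them a probe reads was not checked.

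Among all genes tested, 19.2% were at least 2-fold lower than in liver, 22.2% than in spleen and 21.7% than in thymus. All 19 tested T cell genes were at least 2-fold lower than in thymus and 13 lower than in spleen, and all 14 tested B cell genes were lower than in spleen. The brain-low genes of these 2 lists were Zap70, a T cell kinase, at -3.26 ± 0.08 from liver, and Cd74. Of 19 tested leukocyte signalling genes all were at least 2-fold lower than in spleen and in thymus, 2 were brain-low (Lcp1 and Ptpn6) and 2 were higher than in liver. Of 25 tested cell cycle genes 23 were lower than in spleen and 25 lower than in thymus, with a median of -4.28 from thymus (-3.99 with bounds). Against liver 3 were lower, a smaller share than among all genes tested, and of these 3 Tk1 and Tyms were brain-low. Tk1, which makes thymidine nucleotides, was undetected in every brain and at least 9.3-fold lower than in any other organ.

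Of 23 tested plasma protein genes 22 were lower in the brain than in liver, with a median difference of -8.24 (-7.8 with bounds), and all 22 tested liver metabolism genes were lower, with a median of -6.48 (-6.01 with bounds). Against thymus 12 of the 23 plasma protein genes were lower, and 5 without the brain array of mouse B, the spleen array of mouse G and the thymus array of mouse A. The 5 are a share near the 21.7% of all genes that were lower than in thymus with all arrays. Hp, haptoglobin, was the 1 brain-low gene among the plasma protein genes: it was undetected in every brain and at least 436.1-fold, 10.5-fold and 13.1-fold lower than in liver, spleen and thymus. Of 9 tested erythroid genes 2 (22.2%) were brain-high, against 7.87% of all genes tested, while 5 were lower than in spleen. The 2 were Sptb and Ank1, which code for spectrin and ankyrin forms that neurons also use. The spleen arrays differed in this list, with medians of 1.84, 1.94 and 1 log2 units above the other spleen arrays in mice B, C and G and of -1.06, -1.08 and -1.19 in A, D and E. Ank1 ran from 5.21 to 9.57 in spleen, highest in B and C, against 9.6 to 10.34 in the brain, and the part of these arrays in the counts was not tested. Another Ank1 probe stood at -0.31 from its closest organ.

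Differences of the housekeeping lists depended on scaling. None of 39 tested ribosomal protein genes was brain-high, and 25 were at least 2-fold lower than in spleen and 25 lower than in thymus, with medians of -1.27 and -1.23. With median scaling 29 and 26 were lower, with medians of -1.48 and -1.25. Against liver the median of 0.23 turned to -1.08 with median scaling and to -0.3 without scaling, so no direction can be given there. Of 51 tested oxidative phosphorylation genes 23 were higher than in spleen, with a median of 0.89, against 10 with median scaling and 2 without scaling, and none was called against thymus in either direction (2 lower without scaling). Against liver 6 were lower, a smaller share than the 19.2% of all genes tested, with a median of 0.01. With median scaling 39 were lower, with a median of -1.17. The next counts leave out the arrays of brain B, spleen G and thymus A, which stood apart. Ribosomal protein genes lower than in spleen and thymus then numbered 25 and 23. Oxidative phosphorylation genes higher than in spleen then numbered 20, and 1 was higher than in thymus.

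The family that the study targeted differed between its members. Hmgn3, an HMGN protein of the brain and other tissues, was at 10.9 to 11.33 in the brain, above liver by 4.69 ± 0.11, spleen by 1.09 ± 0.12 and thymus by 1.3 ± 0.11 (adjusted p at most 4.3e-10, limma). Hmgn1 was at 10.58 to 11.04 in the brain and at 10.51 to 10.94 in liver, and did not pass the test between them (0.14 ± 0.09, adjusted p = 0.153). It was lower than in spleen and thymus, with log2 differences of -1.24 ± 0.09 and -1.32 ± 0.09. Hmgn2 ran in the order thymus, spleen, brain and liver, at medians of 12.94, 12.15, 10.78 and 9.27. The spleen array of mouse H had been left out for its Hmgn2 signal, so that the place of spleen rests on that choice, and with that array the difference of brain from spleen was -0.58 in place of -1.35 and did not pass the test (adjusted p = 0.297, limma). Hmgn5, an X-linked member, was at 6.15 to 7.26 in the brain and lower than in all 3 organs, by 1.19 ± 0.13 from spleen at the least (-1.19). Levels of different genes cannot be set against each other on these probes.

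A few genes were shared by the brain and 1 other organ, within 2-fold of that organ and at least 4-fold above the other 2. There were 37 such genes with liver, 16 with spleen and 13 with thymus. Besides Ttr, the class shared with liver was led by Nrn1 (neuritin, a growth protein of neurites), at 11.03 to 11.47 in brain and 11.26 to 11.74 in liver, and by Tmem25, Ddah1 and Ptprd. The class shared with spleen was led by Mef2c, a factor of neurons and B cells, at 8.95 to 10.64 in brain and 9.68 to 10.52 in spleen, and by Car2, Efhd1, Bcl11a and Sorl1. Car2, carbonic anhydrase of glia and red cells, had spleen values from 6.94 to 10.88. The class shared with thymus was led by Clip4 and Nsg2, followed by 1700019D03Rik, Nyap1 and Kcnh2, with Nsg2, a neuronal vesicle protein, at 10.89 to 11.31 in brain and 9.9 to 10.4 in thymus.

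The 8 brains differed little among themselves for most genes. The median SD over the brain arrays was 0.226 log2 units across 7815 genes, against 0.181 in liver, 0.27 in spleen and 0.145 in thymus. The gene with the largest SD, 1.02, was Arhgap32, a neuronal GTPase activator, at 9.62 in mouse B and 6.5 to 8.31 in the other 7. Tmem87a, a Golgi protein, fell into separate ranges that did not follow the strain labels: it read 7.33 to 7.54 in mice B, C and D and 5.38 to 5.77 in A, E, F, G and H. The same mice were apart in spleen and thymus, at 7.12 to 8.32 in spleen and 7.57 to 8.37 in thymus of B, C and D, against 5.59 to 6.12 and 5.99 to 6.43 in the others. Liver did not show this split. There mouse A read 5.74, next to 5.77 in B, 6.27 in C and 6.66 in D, against 4.82 to 5.5 in E to H. Dynll2, a dynein light chain, followed the strain labels, at 7.77 to 8.37 in mice A to D and 6.3 to 6.85 in E to H. Erdr1, P2ry12, Dag1, Rtl8a, Mt3, Zbtb7a and Pdpk1 completed the 10 most variable genes. The array of mouse B, which stood apart, was the highest for Arhgap32, Dag1 and Pdpk1 and the lowest for Rtl8a, Mt3 and Zbtb7a. For the other genes of the 10 it was neither.

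On the array of mouse B the ribosomal protein genes lay at a median of 0.76 and the oxidative phosphorylation genes 0.59 below the other brains (-0.76 and -0.59), while the GABA, channel and vesicle genes lay 0.46, 0.36 and 0.28 above them. Neuropeptide genes lay 0.43 below (-0.43). Without the brain array of mouse B, the spleen array of mouse G and the thymus array of mouse A, 865 genes were brain-high and 854 of the 870 were among them, and 141 were brain-low, 132 of the 137 among them. The spleen array of mouse G was low for the same lists, at -0.73 for ribosomal protein and -1.41 for oxidative phosphorylation genes.

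The organ comparison was repeated on the 31 arrays of the mutant mice, which the brain-high rule had not used. In the brains of these mice the Hmgn2 probe read 4.43 to 5.09, against 10.51 to 10.91 in the wild types, while the Hmgn1 probe read 10.52 to 10.7 in double knockouts, against 10.51 to 10.97. No source used here says whether the Hmgn1 probe lies in the deleted part. All 870 brain-high genes were tested again, and 826 (94.9%) were brain-high in the mutants by the same rule, against 7.81% of the 10926 genes tested there. All 870 had higher fitted values in the brain than in each of the 3 organs, the smallest difference being 1.5 log2 units. Of the 137 brain-low genes 114 (83.2%) were brain-low again, against 1.1% of genes tested. Dpp4 stood at -4.46 from its closest organ. The mutant and wild-type arrays came from separate mice and have the same probes.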

How the data were processed

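Total RNA was labelled with biotin and hybridised to Illumina bead arrays, and the deposited table holds, for each of 25697 probes and 64 arrays, an intensity that the authors had not normalized and a detection p-value, with GenomeStudio 2011.1 named in the submitters' processing notes. The authors' normalized table, of intensity values after their own normalization, was used only as an alternative. Arrays were grouped by their labels. Background was corrected with normexp from the detection p-values (offset 16), arrays were quantile normalized together and log2 was taken, with limma 3.58.1 in R 4.3.3. A probe was kept when detected (p under 0.01) on at least 4 of the 31 arrays, and the probe with the highest mean stood for its gene, which left 11060 genes. Of the probes, 1719 had no gene symbol.

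Organ means were fitted with limma with mouse as a random block, and p-values were adjusted over all genes by the Benjamini-Hochberg method. The mouse identifiers in the labels tie the organs of 1 animal together, and deviations from the group means correlated between brain and the same mouse's other organs by -0.235 to 0.163, with a block correlation of -0.01036. Arrays of a group came from separate mice, and their number limits the precision. Genes in the text were named by a rule on the size of the difference, the spread over brains and membership of gene lists, and the exceptions are given where they occur. The members, gene lists and tests were chosen with earlier results of these data known. Where a fold is given for a gene undetected on all arrays of a group, it is a bound set with the dimmest detected probes. Calls, counts and list medians rest on fitted values unless bounds are named. The fit was tested on simulated data. Alternatives covered background, offset, scaling, the authors' table, the detection filter, the probe rule, the block, strain label, array weights and each array left out.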

Additional observations from a re-analysis of the deposited data

Results flagged for a closer look

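Among the 168 tested genes named in the text, 19 had 1 brain array that lay apart. Its gap to the nearest other array was a large part of the range over the 8 arrays. The limit is one that about 1 in 20 independent normal samples would pass. Some genes were named for their spread over these brains, and genes on 1 array move together, so the count cannot be set against that rate. The array of mouse B was the one apart for 14 of the 19. It was low for Hmgn1 at 10.58, Mt1 at 13.08, Syp at 11.34, Slc17a7 at 8.99, Cck at 9.67, Npy at 8.65, Hpca at 10.87, Klf2 at 5.44, Nrn1 at 11.03 and Serpina1b at 4.17, the last undetected on every brain array. It was high for Parp3 at 5.64, Tmem25 at 11.5, Sorl1 at 10.18 and Dag1 at 8.78. In mouse D, Ckb read 14.22 against 14.35 at the top of the range, and Ptcra was high at 5.21. In mouse A, Fcrls read 6.59, and in mouse E, Cbln1 was low at 10.83 and Prl high at 12.88.

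For 5 named genes the difference between brain and the mean of the other 3 organs differed between the strain labels, by limma's test of the interaction over all genes, which called 188 genes. For Pmch and Tbr1, higher in the brain, the difference was larger in mice labelled C57BL/6J than in C57BL/6, by 0.61 and 0.52 log2 units. For B2m, lower in the brain, it went from -3.25 in C57BL/6 to -2.56 in C57BL/6J, a change of 0.69, so that the brain was less far below. For Dynll2 and Zic1, higher in the brain, it was smaller in C57BL/6J, with changes of -1.45 and -0.64. Pmch, Tbr1 and Zic1 were undetected in the other organs, so that their changes follow the brain values. Each strain label holds 4 mice.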

How the results depend on the processing

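The counts of called genes kept within 1.5 times under all alternatives except 2. Without background correction 1632, 1429 and 1423 genes were higher and 1312, 1377 and 1269 lower than in liver, spleen and thymus, with 456 brain-high and 10 brain-low genes, and with an offset of 50 there were 46 brain-low genes. Leaving out 1 array at a time gave 863 to 874 brain-high and 132 to 141 brain-low genes, 2595 to 2641 higher and 2115 to 2139 lower than in liver, 2368 to 2389 and 2438 to 2469 for spleen, and 2318 to 2341 and 2385 to 2417 for thymus. Of the original calls, 854 to 868 brain-high and 130 to 137 brain-low genes remained. Without the mouse block 870 genes were brain-high and 137 brain-low, and with mouse as a fixed replicate block 867 and 136. The authors' normalized table gave 973 and 181. Higher calls were 55.1% of calls against liver, 49.2% against spleen and 49.2% against thymus, and 68.2%, 36.7% and 36.9% without scaling or 68.2%, 36.5% and 37% with each organ normalized on its own.

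Some differences changed sign. Mbp against spleen and thymus was 6.99 and 7.01 without background correction, 4.84 and 4.69 with the mean of probes, and 8.71 and 8.77 with the probe brightest in the brain. Klc1 was 3.24 and 3.37 with the mean of probes and 6.09 and 6.07 with the probe brightest in the brain. Without scaling and with each organ on its own, Klf2 against liver was 0.13 and 0.12, Ptcra against liver 0.09 and 0.05, Efhd1 against spleen -0.07 and -0.07, 1700019D03Rik against thymus -0.13 and -0.13, and Pdpk1 against liver 0.11 and 0.13. Ptprd against liver was -0.15 with median scaling, and Dynll2 against liver -0.1 in C57BL/6J mice. The cause of these changes was not tested, other than the change of probe. The settings without the arrays that stood apart, without mice E and G, with the probe brightest in the brain and with bounds for undetected groups (724 brain-high and 126 brain-low genes) were chosen after seeing the data. Differences of genes near background or near the top of the signal range are limited by the array.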
